A study of Mus musculus with 13 samples.

Results

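The sham-treated mouse tail with lymphedema was described gene by gene from the 7 samples labelled TNTSham, of 13 samples in the series. Members were chosen by that group label alone, and the 6 samples labelled TNTProx1 entered no comparison. All 7 were murine tail tissue at day 28 after TNT, from mice aged 12 weeks, and are called TNTSham 1 to 7. TNT is understood here as tissue nanotransfection, in which a short electric pulse drives nucleic acids into skin through a chip. The labels do not say what the sham treatment contained, whether each sample came from a separate animal, or which layers of the tail were dissected. Total RNA was depleted of ribosomal RNA, converted into stranded libraries and sequenced in pairs. Levels are CPM, the counts of a gene after scaling each library to a common total of 10 to the sixth, and since a longer gene gathers more counts, an order of genes by CPM is one of counts, and transcript levels of different genes are compared per kilobase of exon.

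Lymphedema is swelling that follows when lymph no longer drains, and in the mouse tail it can be produced by cutting the lymph vessels of the skin. The tail is built of an outer skin with scale epidermis and sparse hair follicles, a dermis and a thin fat layer. Beneath these lie tendons and muscles that surround a chain of vertebrae with cartilage discs, together with nerves and blood and lymph vessels. RNA of whole tail tissue can therefore hold transcripts of skin, muscle, bone, cartilage, tendon, nerve and vessel at the same time.

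The total count per sample, in M (10 to the sixth), was 36.6M ± 6.32M (SD, n = 7), within a range of 29.7M to 47.9M. Genes with at least 1 count numbered 27854 in TNTSham 6 and 28474 in TNTSham 7, against 32026 to 33986 in the other 5 samples. Spearman correlations between samples lay between 0.976 and 0.991, and none of the 21 pairs was identical. TNTSham 1 stood apart on the sex-linked genes. Xist, which silences the second X chromosome of females, reached 2099 CPM in TNTSham 1, where the other 6 had 0.267 to 2.01 CPM. The Y-linked Ddx3y, Eif2s3y, Uty and Kdm5d had 0 counts in TNTSham 1, where 3 counts would be 0.0843 CPM, and their summed level was 299 to 352 CPM in the others. The sex of the animals is not given in the labels used here. By these genes TNTSham 1 had a female pattern and the other 6 a male one. Whatever else sets TNTSham 1 apart below cannot be told apart from this difference. TNTSham 6 and 7 stood apart on some mitochondrially encoded genes. The gene mt-Nd4l, which encodes a subunit of respiratory complex I, was at 6.49 and 10.4 CPM in them and at 99.0 to 141 CPM in the other 5. The ATP synthase gene mt-Atp8 was at 27.2 and 52 CPM in them and at 164 to 234 CPM in the other 5, while mt-Co3 was lowest in TNTSham 6 (1216 CPM) and highest in TNTSham 7 (2568 CPM). The unprocessed pseudogene Gm10222 had nearly the same mean as mt-Nd4l (93.8 and 92.0 CPM). Both were highest in TNTSham 1 and lowest in TNTSham 6, and whether they share reads was not tested.

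The genes with the most counts in the sham-treated tail encoded collagens and epidermal keratins. Type I collagen and Sparc are made in dermis, bone and tendon alike, and their counts were not assigned to a tissue. The 10 most abundant took 10.9% ± 1.32 (SD, n = 7) of all counts. By CPM they were led by Col1a1 and Col1a2, the chains of type I collagen, at means of 18320 ± 5449 and 15892 ± 4145 CPM (SD, n = 7). Then came the suprabasal keratin Krt10 at 14042 ± 2181 CPM, the nuclear RNA Malat1 at 11715 ± 3541 CPM and the partner keratin Krt1 at 10742 ± 3204 CPM. Col3a1, the giant muscle protein gene Ttn, mt-Co1, Ahnak and the matrix glycoprotein Sparc completed the 10, with means between 5737 and 8642 CPM. The next 10 were Krt84, the desmosome gene Dsp, Hrnr, Krt2, Fn1, Eef1a1, Krt36, Col12a1, Krt14 and Krt5. As whole families, keratin genes held 5.22% ± 0.796 and collagen genes 5.42% ± 1.28 of counts (SD, n = 7). These families did not hold the same share in every sample. Collagens had a larger share than keratins in TNTSham 3 to 7, and keratins a larger share in TNTSham 1 and 2 (6.39% against 4.2%, and 6.07% against 3.83%).

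Gene length changed this order. Per kilobase of exon, Krt10 stood highest at 6642 CPM per kb, followed by mt-Co1 at 5200, Col1a1 at 2791 and Gm29216 at 2638 CPM per kb. Ttn, whose exons span 117 kb, fell from place 7 by CPM to place 471 per kb, at 71.7 CPM per kb. The hard keratins Krt84 and Krt36 had 1976 and 1964 CPM per kb. The other genes among the 12 highest per kb were Gm28437, Krt1, mt-Co3, Rn7s6, Malat1 and Gm10925. Gm28437 copies mt-Co3 in the nuclear genome, and 99.9% of the 31-base words of the mt-Co3 transcript also occur in it. Their mean levels of 1909 and 1895 CPM therefore cannot be assigned to either gene. Gm10925 is likewise a copy of mt-Atp6, with means of 1124 and 1019 CPM, and Gm29216 is also an unprocessed pseudogene on chromosome 1. Shared words were not counted for Gm10925 and Gm29216, so their places per kb were not read as transcript levels.

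Skin was represented by basal, differentiated and cornified layers of the epidermis. All 12 members of the basal epidermis list and all 11 of the differentiated list reached 1 CPM in every sample, as did all 14 cornified envelope genes. Summed levels were 10110 ± 1495 CPM for basal epidermis, 34858 ± 5859 CPM for differentiated epidermis and 8157 ± 1172 CPM for the cornified envelope (SD, n = 7). Their highest samples were at 1.53, 1.5 and 1.51 times their lowest. Krt14, the basal keratin of dividing keratinocytes, was at 4458 CPM in TNTSham 1 and at 2012 to 2726 CPM elsewhere. In bulk tissue, fewer cells of a type and less RNA per cell cannot be told apart, and that holds for every list level given here. Appendages were present as well. The 15 measured hair shaft and hard keratin genes summed to 9466 ± 2380 CPM, of which Krt84 (5218 ± 1190 CPM) and Krt36 (3282 ± 718 CPM) made up most. Both keratins are known from hard epithelia such as nail, tongue papillae and tail scale. Keratins of the hair follicle's inner root sheath were lower per kilobase, with 105 CPM per kb for Krt71 and 69.9 for Krt25. Sebaceous gland genes, led by the fatty alcohol-forming Far2 (263 ± 88.1 CPM), Fa2h and Soat1, summed to 915 ± 244 CPM. Melanocyte genes summed to 108 ± 19.7 CPM, with Mitf, the regulator of the pigment lineage, at 37.5 ± 3.93 CPM and Dct at 24.1 ± 5.99 CPM. Fibroblast and dermis genes summed to 58051 ± 12968 CPM, most of it from type I and type III collagen. A summed CPM grows with the number and length of a list's genes, so sums are compared between samples and not between lists.

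Skeletal muscle was present in every sample. Its 25 genes were all at 1 CPM or more in every sample, and their sum ranged from 10935 CPM in TNTSham 4 to 20036 CPM in TNTSham 2. Much of the sum was Ttn (8375 ± 1623 CPM) and the thin filament ruler Neb (1683 ± 342 CPM), which are among the longest transcripts known. Per kilobase, Acta1 (skeletal actin) stood at 259 CPM per kb, the calcium pump Atp2a1 at 213, the fast light chain Mylpf at 175 and the fast myosin Myh1 at 149. Among myosins of other fibre types, Myh2 had 36.8, the slow Myh7 15.6 and Myh4 12.3 CPM per kb. Myogenic precursor genes summed to 113 ± 25.6 CPM. Most of that came from the developmental myosin Myh8 (63.9 ± 23.3 CPM), the receptor subunit Chrna1 (19.8 ± 6.26 CPM) and the embryonic myosin Myh3 (16.7 ± 6.24 CPM). Only 4 of the 10 members were at 1 CPM or more in every sample, and the sum was not assigned to precursor cells. Myh8 was lowest in TNTSham 1 (34.1 CPM) and highest in TNTSham 2 (101 CPM), as was Myh1 (517 and 1594 CPM). Whether reads were shared between these myosins was not tested.

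Bone and cartilage were present at levels that differed widely between samples. Osteoblast and osteocyte genes, all 15 of them at 1 CPM or more in every sample, summed to 1016, 787, 1049, 459, 1692, 1170 and 684 CPM in TNTSham 1 to 7. TNTSham 5 was thus 3.69 times TNTSham 4. Ibsp, the mineral-binding bone sialoprotein, had 164, 92.9, 134, 31.7, 394, 231 and 84.1 CPM in the same order. The osteocyte genes Dmp1 (13.1 ± 9.63 CPM) and Sost (3.02 ± 1.5 CPM) were also counted. Osteoclast genes summed to 971 ± 243 CPM, led by the collagenase cathepsin K gene Ctsk (453 ± 97.8 CPM) and by Mmp9 (168 ± 86.4 CPM). Ctsk and Mmp9 are also made outside bone, by fibroblasts and leukocytes.

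Cartilage genes summed to 1168 ± 311 CPM and were highest in TNTSham 3. Most of the sum came from members that other connective tissues also express, namely Col11a1 (361 ± 122 CPM), the lubricin gene Prg4 (202 ± 63.1 CPM) and Comp (158 ± 25.0 CPM). Col2a1, the defining collagen of cartilage, had 62.1, 81.2, 242, 11.9, 55.1, 69 and 35.0 CPM in TNTSham 1 to 7. Acan, the large proteoglycan of cartilage, was highest in TNTSham 3 at 193 CPM and lowest in TNTSham 4 at 39.3 CPM as well. Matn1, a matrilin of hyaline cartilage, stayed at or under 0.0504 CPM. The notochord and disc list summed to 8.99 ± 6.75 CPM, and 6 of its 8 members did not pass the filter on low counts. Its gene T (brachyury), the transcription factor of notochord cells, had 2.73, 12.3, 7.12, 0.236, 4.03, 2.53 and 0.735 CPM. Noto had 0 counts in all 7 samples, where 3 counts would be 0.0628 to 0.0990 CPM. Krt8, Krt18 and Krt19 of this list are also made by simple epithelia. TNTSham 4 was lowest for Ibsp, Col2a1, Acan and T alike.

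Tendon genes summed to 5876 ± 1206 CPM, with all 9 at 1 CPM or more in every sample. Col12a1 (2912 ± 999 CPM), Fmod (1516 ± 132 CPM) and Thbs4 (838 ± 207 CPM) led them, and the first of these is shared with dermis. Tenomodulin (Tnmd), which is more restricted to tendon and ligament, was at 165 ± 23.7 CPM with a range of 133 to 198 CPM. The tendon regulator Scx was at 1.98 ± 0.768 CPM.

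Nerve was seen more through genes of its sheath cells than through neuronal genes, whose median levels were 2.47 and 0.051 CPM per kb. Schwann cell and myelin genes summed to 465 ± 96.5 CPM, and 16 of 18 were at 1 CPM or more in every sample. Their sum was highest in TNTSham 2 and 3, at 600 and 598 CPM, and lay at 348 to 442 CPM in the other 5. Pmp22 (133 ± 24.3 CPM), which is also expressed by fibroblasts, Scn7a (67.2 ± 5.33 CPM) and Mbp (60.4 ± 16.1 CPM) had the most counts of the list. Neuron genes summed to 21.4 ± 3.64 CPM. Of these 12 genes 4 reached 1 CPM in every sample, Tubb3, Stmn2, Uchl1 and Gap43, with means of 2.62 to 6.15 CPM. The neurofilament genes Nefl, Nefm and Nefh stayed below 0.4 CPM in each sample.

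Vessels of the blood and lymph circulation were both represented. All 16 blood endothelial genes were at 1 CPM or more in every sample and summed to 776 ± 166 CPM. Pecam1, an adhesion molecule of endothelial junctions, had 164, 101, 98.6, 98.6, 184, 120 and 95.0 CPM, with TNTSham 1 and 5 above the other 5. All 11 lymphatic endothelial genes were also at 1 CPM or more, with a sum of 750 ± 69.8 CPM whose highest sample was 1.31 times its lowest. Nrp2 (202 ± 37.7 CPM) held the most counts of the list, and the sum was not assigned to lymphatic endothelium alone. Prox1, which sets lymphatic endothelial identity, was at 28.3 ± 2.93 CPM within 23.6 to 33.2 CPM. The hyaluronan receptor Lyve1, shared with some macrophages, was at 81.0 ± 20.2 CPM. Flt4, the receptor of lymphatic growth factors, was at 52.6 ± 4.89 CPM. Ccl21a, a chemokine of lymph vessels with near-identical copies, was at 41.8 ± 13.3 CPM. Smooth muscle genes summed to 524 ± 92.8 CPM and pericyte genes to 854 ± 113 CPM, with Rgs5 (409 ± 68.9 CPM) holding the most counts of the pericyte list.

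**Figure D1:**
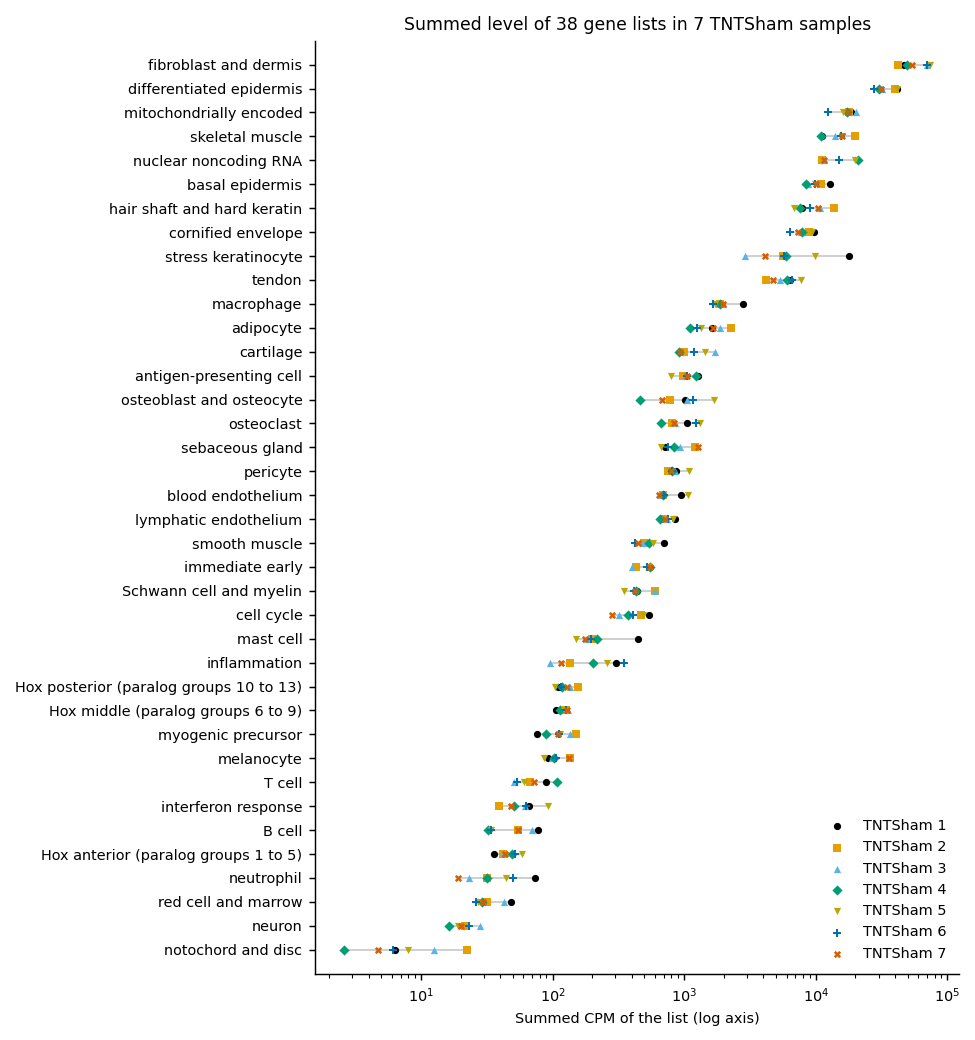
Summed CPM (log axis) of 38 gene lists in each of the 7 TNTSham samples, with 1 point per sample, a grey line from the lowest to the highest sample, and lists ordered by their mean. Fibroblast and dermis genes lie at 42057 to 73997 CPM, and the widest lines belong to notochord and disc, stress keratinocyte, neutrophil, osteoblast and inflammation genes.

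Fat and blood-derived cells completed the picture. Adipocyte genes summed to 1588 ± 399 CPM, with Plin1, the lipid droplet coat protein, at 24.1 ± 8.85 CPM. Car3 (879 ± 220 CPM), with the most counts of the list, is also a muscle enzyme. Macrophage genes summed to 1985 ± 378 CPM, with Lyz2 at 577 ± 120 CPM. Antigen-presenting cell genes summed to 1055 ± 156 CPM, mast cell genes to 225 ± 100 CPM, T cell genes to 71.9 ± 20.9 CPM, B cell genes to 51.1 ± 18.4 CPM and neutrophil genes to 39.2 ± 18.7 CPM. Only 3 of 10 neutrophil genes passed the filter, and the defining surface gene Ly6g had a mean of 0.0844 CPM. TNTSham 1 was highest for the macrophage list (2800 CPM against 1667 to 1973), the mast cell list (447 CPM against 152 to 216) and the neutrophil list (73.9 CPM against 19.3 to 49.8). Red cell and marrow genes summed to 33.4 ± 8.48 CPM, and globin Hbb-bs stayed at 0.362 to 3.08 CPM. The depletion kit named in the labels also removes globin RNA, so this level does not measure blood.

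State-related lists were compared in the same way. Cell cycle genes summed to 412 ± 92.7 CPM, with the proliferation gene Mki67 at 180 ± 44.1 CPM. Immediate early genes, which respond within minutes to stimuli, summed to 507 ± 62.9 CPM. Interferon response genes summed to 60.2 ± 16.8 CPM and inflammation genes to 209 ± 97.8 CPM. Mitochondrially encoded genes summed to 17092 ± 2415 CPM and nuclear noncoding RNAs to 14480 ± 4345 CPM, the latter mostly Malat1 with 16956 and 16453 CPM in TNTSham 4 and 5 and 9030 to 11791 CPM in the other 5. Hox genes record position along the body axis. Groups 10 to 13, known for the hind end of the body, summed to 124 ± 17.2 CPM, groups 6 to 9 to 123 ± 9.13 CPM and groups 1 to 5 to 46.2 ± 7.64 CPM. Posterior Hox genes were highest in TNTSham 2 (156 CPM), where Hoxd10 had 21.7 CPM against 14.0 to 16.1 CPM elsewhere. Hoxc13 belongs both to this list and to the hair shaft and hard keratin list, whose sum was also highest in TNTSham 2 (13697 CPM).

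Most genes differed little between the 7 samples. Over the 20207 genes that passed the filter on low counts, the SD of log2 CPM had a median of 0.24 and a 90th percentile of 0.56. The SD was above 1 for 169 genes, 0.836% of those that passed, and 140 of them were protein-coding. Among them were 13 keratin-associated protein (Krtap) genes of the hair shaft and 5 Sprr genes of the stressed epidermis. TNTSham 1 was the highest sample for 48 of the 169 and TNTSham 2 for 40. The number of genes past this SD depended on the filter, with 2100 without it and 82 at a mean of at least 5 CPM. Of the 38 lists with no sample at 0, 11 had a highest sample more than 2 times the lowest.

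Tissue lists differed in how much their members varied. Over the members that passed the filter, the median SD of log2 CPM was 0.89 for B cell, 0.84 for stress keratinocyte (10 of 11 passed), 0.82 for inflammation (11 of 12), 0.78 for hair shaft and hard keratin, 0.67 for osteoblast and osteocyte, 0.62 for cartilage (16 of 19), 0.58 for adipocyte and 0.56 for skeletal muscle genes. These lie above the 0.24 of all genes that passed the filter. It was 0.21 for basal epidermis, 0.24 for fibroblast and dermis, 0.25 for lymphatic endothelium and 0.3 for tendon genes. Of the neutrophil, neuron and notochord lists too few members passed for such a median to stand for the list. All 7 B cell genes passed, but only 2 of them were at 1 CPM or more in every sample, so their median rests on low counts.

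The 20 most variable protein-coding genes with a mean of at least 5 CPM were led by the 4 Y-linked genes. These 4 and Gm8298 did not pass the filter, because of their low counts in TNTSham 1. Several others were set by 1 or 2 samples. C7, a complement component made by fibroblasts, was at 1.38 CPM in TNTSham 1 and at 33.3 to 65.1 CPM in the others. Gm8298 was likewise at 0.169 CPM in TNTSham 1 against 4.3 to 10.7 CPM. The neutrophil-attracting chemokine Cxcl2 was at 33.8 CPM in TNTSham 6 and at 0.544 to 6.12 CPM elsewhere. Il1b, the inflammatory cytokine interleukin 1 beta, was at 84.4 CPM and Acod1, which makes itaconate in activated macrophages, at 29.0 CPM in TNTSham 6, above all other samples (at most 28.2 and 5.74 CPM). Zic1, a transcription factor with patterned expression along the body, was at 0.53 CPM in TNTSham 4 and at 7.38 to 12.0 CPM elsewhere. Slc15a2, a peptide transporter, spanned 0.544 CPM in TNTSham 3 to 39.8 CPM in TNTSham 5. The epidermal growth factor family member Epgn was at 84.2 CPM and the cystatin Stfa2 at 51.2 CPM in TNTSham 1, against at most 27.9 and 15.4 CPM elsewhere. Tmprss11g, Tmem255a, Gm10061, Col2a1, Sprr2e, Sprr2i and mt-Nd4l made up the rest.

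**Figure D2:**
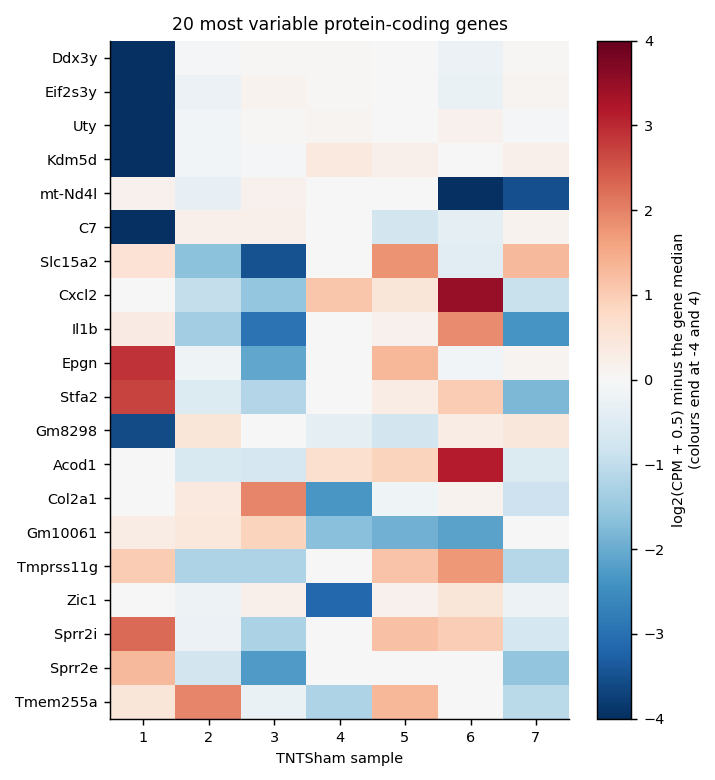
Colour shows log2(CPM + 0.5) minus the median of the gene over 7 TNTSham samples (columns), for the 20 most variable protein-coding genes with a mean of at least 5 CPM (rows), and ends at -4 and 4. The darkest cells belong to single samples or pairs: the Y-linked genes and C7 in TNTSham 1, mt-Nd4l in TNTSham 6 and 7, Cxcl2 and Acod1 in TNTSham 6 and Zic1 in TNTSham 4.

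Among skin lists, the widest span between samples belonged to stress keratinocyte genes, which injured or inflamed epidermis switches on. Their sum was 17753, 5621, 2897, 5946, 9932, 5708 and 4098 CPM in TNTSham 1 to 7, a span of 6.13 times. TNTSham 1 and 5 were highest and TNTSham 3 lowest. Krt16 had 5145, 1646, 803, 1633, 2794, 1481 and 1171 CPM, and Krt6a had 4820, 1641, 807, 1681, 2931, 1865 and 1217 CPM. Krt6b had 5786, 1192, 551, 1184, 3195, 1403 and 798 CPM. These keratins form the stress-induced filaments, with Krt16 pairing with the Krt6 proteins, and all 3 were highest in TNTSham 1 and 5 and lowest in TNTSham 7 and 3. Krt6a and Krt6b share 45.9% of the 31-base words of the Krt6a transcript, so that reads could be split between them. Krt16 shares 19.7% of its words with Krt14, whose level was also highest in TNTSham 1. The small proline-rich envelope genes varied too. Sprr1b had 156 CPM in TNTSham 1 and 28.3 to 76.2 CPM elsewhere, and Sprr2d had 140 and 28.4 to 95.1 CPM. Sprr2h had 33.1 CPM in TNTSham 1 and 4.82 to 16.5 CPM elsewhere. Sprr1a had 369 CPM in TNTSham 1 and 79.9 to 251 CPM elsewhere. S100a8, an alarm protein of stressed epidermis and of neutrophils, had 140 CPM in TNTSham 1 and 13.1 CPM in TNTSham 3, with the others at 32.8 to 106 CPM. The cornified envelope gene Asprv1 was likewise highest in TNTSham 1 (677 CPM against 468 to 545). Macrophage and mast cell genes were highest in that sample as well, and their part in the keratinocyte values was not tested.

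The promoters of these Sprr genes are shown because these genes were all highest in TNTSham 1 and lie near each other on chromosome 3, though their order over the other 6 samples differed. Each sequence is the 250 bases before the gene's start in RefSeq (GRCm38.p6), 5′ to 3′ on the gene's strand, with capitals at matches to TGANTCA, the letters of the AP-1 motif, in either strand. AP-1 factors such as Fos and Jun are known regulators of keratinocyte stress genes.
Sprr1a: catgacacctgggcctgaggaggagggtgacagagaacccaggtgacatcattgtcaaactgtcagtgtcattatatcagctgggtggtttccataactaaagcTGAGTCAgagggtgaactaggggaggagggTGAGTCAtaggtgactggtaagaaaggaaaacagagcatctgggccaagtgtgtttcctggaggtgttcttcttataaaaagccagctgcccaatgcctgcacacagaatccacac
Sprr1b: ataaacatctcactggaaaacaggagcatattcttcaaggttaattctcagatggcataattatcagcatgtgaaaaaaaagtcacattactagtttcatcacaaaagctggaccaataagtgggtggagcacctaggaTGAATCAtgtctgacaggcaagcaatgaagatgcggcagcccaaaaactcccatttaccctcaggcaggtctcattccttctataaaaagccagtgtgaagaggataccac
Sprr2d: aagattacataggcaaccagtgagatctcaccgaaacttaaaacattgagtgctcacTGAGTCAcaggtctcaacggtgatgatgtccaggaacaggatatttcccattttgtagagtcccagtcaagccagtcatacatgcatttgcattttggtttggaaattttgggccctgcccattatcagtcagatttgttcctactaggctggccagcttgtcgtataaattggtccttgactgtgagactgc
Sprr2h: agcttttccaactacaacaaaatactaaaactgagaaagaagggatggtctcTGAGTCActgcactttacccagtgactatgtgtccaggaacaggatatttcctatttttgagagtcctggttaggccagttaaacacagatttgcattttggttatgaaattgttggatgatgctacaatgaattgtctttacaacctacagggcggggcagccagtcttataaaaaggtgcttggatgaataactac
Sprr1a lies at chr3:92485882-92486131 and Sprr1b at chr3:92438780-92439029, both on the minus strand. Sprr2d lies at chr3:92338890-92339139 and Sprr2h at chr3:92385435-92385684, both on the plus strand. The match lies 193 bases before the start in Sprr2d, and also in Sprr2e and Sprr2i. Of the 7 stress keratinocyte genes with a promoter in the reference, a match is held by 4, against 6.75% of all 32851 promoters of the same length. These 4 are the Sprr genes shown, and S100a8, S100a9 and Defb3 of the list have no match. Among Sprr genes a match is held by 9 of 14, which include the same 4, so the counts overlap. Sprr genes form a family, and Sprr2d, Sprr2e and Sprr2i have much the same sequence in this window. Their matches are thus not separate instances to set against the share of all promoters. The remaining list members, Krt6a, Krt6b, Krt16 and Krt17, have no entry in the table. A match in this window describes the letters only.

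**Figure D3:**
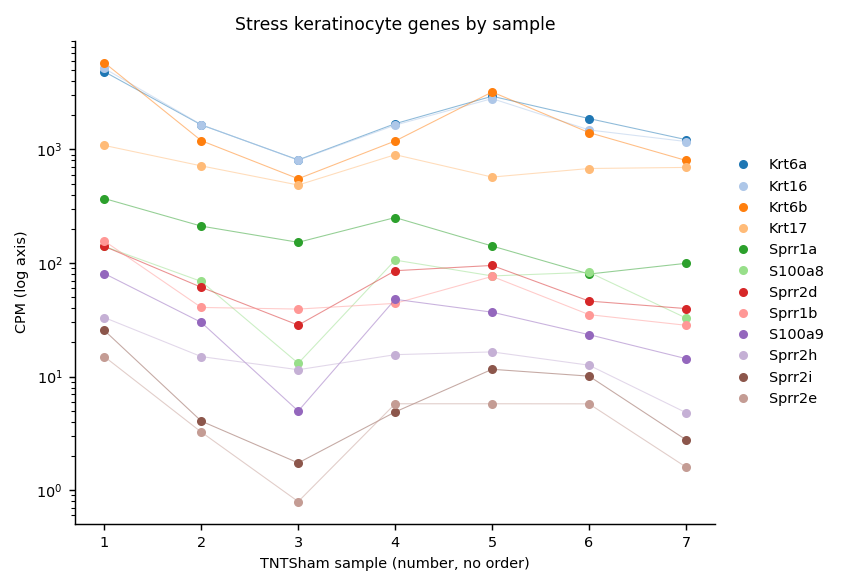
CPM (log axis) of stress keratinocyte genes that passed the filter, and of Sprr2e and Sprr2i, in the 7 TNTSham samples, with 1 point per gene and sample and thin lines joining the points of a gene. The 12 genes are highest in TNTSham 1, and 9 of them, all but Sprr1a, Sprr1b and Sprr2h, are lowest in TNTSham 3.

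Principal components of the 1000 genes with the largest SD placed the samples in the same terms. The first component held 39.7% of the variance and set TNTSham 1, 4 and 5 (-20.4, -12.0 and -18.4) against TNTSham 2, 3 and 7 (16.8, 15.6 and 19.8), with TNTSham 6 between them at -1.43. Il1b, Stfa2, Epgn, Sprr2e and Krt6b were among the 12 genes weighted most toward its negative end. C7 and keratin-associated protein genes such as Krtap6-1 were among those at its positive end. The second component, 22.2% of variance, set TNTSham 6 apart at 26.0. Its ends were Cxcl2, Acod1 and Il1b on that side and mt-Nd4l, mt-Nd3 and mt-Atp8 on the other. The third component, 12.8%, set TNTSham 4 apart at 18.9, at the end opposite to Zic1, Col2a1, Ibsp, Alpl and Dmp1. With TNTSham 6 left out, the first component held 48.9% of the variance.

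**Figure D4:**
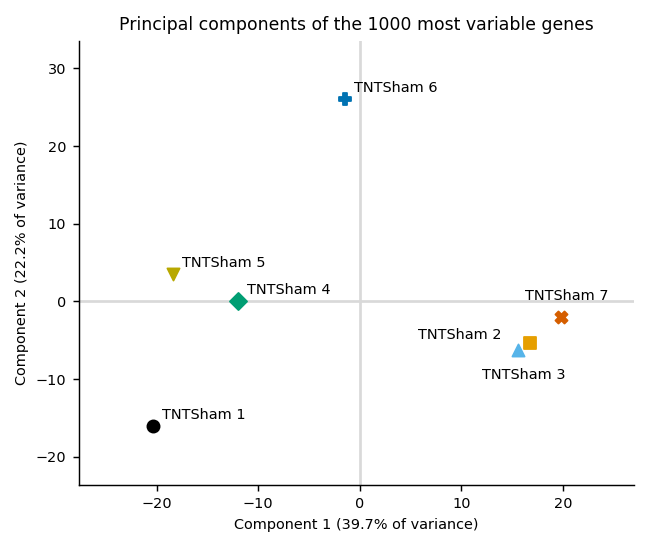
Position of the 7 TNTSham samples on the first (x axis, 39.7% of variance) and second (y axis, 22.2%) principal components of log2 CPM of the 1000 most variable genes. TNTSham 1, 4 and 5 lie left, TNTSham 2, 3 and 7 right, and TNTSham 6 lies at the top.

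Genes that rise and fall together between samples were sought with 5 single genes, each known for 1 tissue. Each was the covariate of a slope, in log2 CPM per log2 CPM, for every other gene in the edgeR quasi-likelihood test, with 20206 genes tested per covariate and p-values adjusted over all of them. No condition was compared, and a slope of 1 means that a gene doubles where the covariate doubles. Since 7 samples support each slope, few samples can decide it.

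Some muscle and hair genes varied with Ckm, the creatine kinase of muscle, whose level was 67.8, 228, 126, 45.8, 53.8, 85.7 and 205 CPM in TNTSham 1 to 7. Ckm was highest in TNTSham 2, 3 and 7, which also lay at the positive end of the first component. Its slopes cannot be told apart from that component. The muscle sum did not follow Ckm in every sample, with 15743 CPM in TNTSham 5 and 15709 CPM in TNTSham 7, so Ckm was not read as the amount of muscle. Of 20206 genes 159 were called (0.787%), 140 higher (0.693%) and 19 lower (0.094%) with rising Ckm. Skeletal muscle genes were called in 12 of 24, all higher, and all 24 slopes were above 0, with a median of 0.54 against -0.01 over all genes. The glycolytic enzymes Pgam2 and Eno3 had slopes of 0.77 ± 0.06 (SE; edgeR adjusted p = 0.00168) and 0.87 ± 0.08 (SE; edgeR adjusted p = 0.00557). The Z-disc genes Myoz1, Ldb3 and Tcap had 0.88, 0.63 and 0.54. Eno3 had 39.3, 124, 94.0, 37.6, 42.2, 62.1 and 147 CPM in TNTSham 1 to 7. The fast-fibre genes Mylpf, Tnni2 and Myh1 rose with Ckm as well (slopes 0.83, 0.73 and 0.53). The longest muscle genes had slopes near 0 and were not called, with 0.09 for Ttn, 0.09 for Neb and 0.16 for Ryr1. Exon length of the 12 called members had a median of 1.84 kb (1.04 to 6.35 kb), and that of the 12 not called 6.58 kb (0.8 to 117 kb). The share of counts on nuclear protein-coding genes with exons under 1500 nt also varied, at 3.46 to 3.67% in TNTSham 1, 2, 3 and 7 and 2.6 to 2.93% in TNTSham 4, 5 and 6, and its part in the slopes was not tested. The 12 calls among muscle genes became 2 without TNTSham 2, 6 without TNTSham 5 and 0 without both TNTSham 6 and 7. Slopes above 0 then numbered 22 without TNTSham 2 and 24 without TNTSham 5 or without both 6 and 7.

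Members of other lists were called with Ckm too. Hair shaft and hard keratin genes were called in 4 of 15 (Krt31, Krt27, Krt35 and Krt25), all 15 slopes were above 0 and their median was 0.68. None of the 15 was called without TNTSham 2, without TNTSham 5 or without both 6 and 7. All 14 adipocyte slopes were above 0 as well, with none called. Krtap genes, chosen as a family after the calls were seen, were called in 19 of 52, all higher, with 52 slopes above 0. The sebaceous genes Mc5r and Dgat2 were called in a list of 10, as was Synpo2 of 11 smooth muscle genes. Synpo2, an actin-binding protein, is also made by skeletal muscle. Among nuclear noncoding RNAs, Rian, Meg3 and Mirg were called lower, with slopes of -0.50, -0.57 and -0.54. These RNAs come from 1 imprinted cluster. The 5 protein-coding genes of smallest p among those lower were Mmp12, a macrophage elastase, Dclk1, the cytokine receptor gene Il4ra, Glis3 and Pvr (slopes -0.58, -0.40, -0.50, -0.41 and -0.33). No slope was above 0 among the 10 stress keratinocyte, 11 inflammation, 11 osteoclast, 12 cell cycle, 9 interferon response, 7 antigen-presenting cell and 3 neutrophil genes tested, and none of these was called. The calls rested on few samples. Without TNTSham 2 the count was 12, without TNTSham 5 it was 24, and without TNTSham 1 it was 229. It was 88, 93 and 74 without TNTSham 3, 6 and 7. With TNTSham 6 and 7 both left out, a choice made after seeing the data, 0 genes were called by edgeR, at a smallest adjusted p of 0.0518 and with 1908 genes under 0.05 before adjustment, while DESeq2 on all 7 samples called 898.

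**Figure D5:**
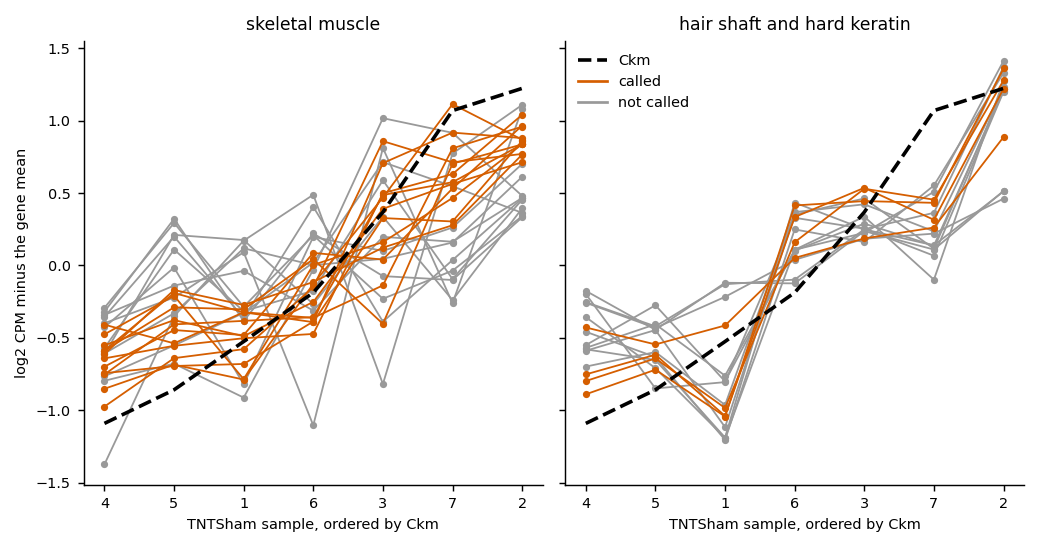
Log2 CPM minus the mean of each gene (y axis) over the 7 TNTSham samples ordered by Ckm (x axis), for skeletal muscle genes (left) and hair shaft and hard keratin genes (right), with 1 line per gene, called genes in orange, other genes in grey and Ckm as a dashed line. The 12 orange muscle lines and the 4 orange keratin lines end higher in TNTSham 2 than they start in TNTSham 4. Their call for a slope above 0 on Ckm largely sets that rise. The lines of Krt25, Krt27 and Krt35 are lowest in TNTSham 1.

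With Ibsp, calls were few. Of 20206 genes 2 were called (0.0099%), both of them known in bone remodelling. Alpl, the mineralizing phosphatase, had 34.4, 17.4, 31.8, 9.86, 82.0, 60.3 and 23.5 CPM in TNTSham 1 to 7 and a slope of 0.87 ± 0.07 (SE; edgeR adjusted p = 0.0106). Mmp9, the gelatinase of osteoclasts, had a slope of 0.63 ± 0.06 (SE; edgeR adjusted p = 0.0274). Slopes were above 0 for 14 of 14 osteoblast and osteocyte genes (median 0.45) and for 10 of 11 osteoclast genes (median 0.48), against a median of 0 over all genes. Other lists leaned the same way with none called, including inflammation (9 of 11, median 0.44), cartilage (13 of 16, median 0.3), interferon response (9 of 9, median 0.27), blood endothelium (15 of 16, median 0.17) and cell cycle (12 of 12, median 0.11). TNTSham 5 had the highest and TNTSham 4 the lowest level of Ibsp, Alpl and Mmp9. Without TNTSham 4, 5 or 7, or without both 6 and 7, no gene was called, and without TNTSham 1, 2 or 6 there was 1. The numbers at an unadjusted p under 0.05 were 3035, 824 and 602 without TNTSham 4, 5 and 7 and 588 without both 6 and 7.

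A single gene varied with Pecam1 at the threshold (0.00495% of 20206). It was Cdh5, the cadherin of endothelial junctions, with 151, 89.4, 76.7, 79.5, 194, 94.8 and 71.1 CPM and a slope of 1.38 ± 0.12 (SE; edgeR adjusted p = 0.00988). Slopes were above 0 for 14 of 15 blood endothelial genes (median 0.49) and for 8 of 11 lymphatic genes (median 0.25). Larger medians, with none called, belonged to stress keratinocyte (10 of 10, median 1.45), inflammation (9 of 11, median 1.2), osteoclast (11 of 11, median 1.18), interferon response (9 of 9, median 0.86), osteoblast and osteocyte (13 of 15, median 0.79) and cell cycle genes (12 of 12, median 0.57). The summed levels of blood endothelial and of stress keratinocyte genes were both highest in TNTSham 1 and 5. The count was 138 without TNTSham 4 and 0 without TNTSham 3, 5 or 7, where 1835, 2134 and 1460 genes were under 0.05 before adjustment. It was also 0 without both 6 and 7, with 1450 genes under 0.05.

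With Krt10 and Plin1 as covariates, edgeR called 0 genes each (0.0%). Krt10 itself varied little, with its highest sample at 1.44 times its lowest, against 12.4 times for Ibsp. Slopes on Krt10 thus rest on a narrow range. The 0 calls do not show that no gene varies with it, and its slope sizes are not comparable with those on Ibsp. Before adjustment, p was under 0.05 for 818 genes with Krt10 and 2212 with Plin1. DESeq2 called 2 and 140, and limma trend called 0 for each. Leaving out samples gave 3 genes for Krt10 without TNTSham 5 and 1 for Plin1 without TNTSham 2. The genes of smallest p for Plin1 were Fabp4, which carries fatty acids, the adipokine gene Adipoq, Trf, Gpd1 and Npr3, with slopes of 1.1, 1.17, 0.52, 0.95 and 0.64. All 13 adipocyte genes had slopes above 0, at a median of 0.86, as did all 7 B cell (median 1.53), 25 skeletal muscle (0.57), 15 hair shaft and hard keratin (0.55), 13 mitochondrially encoded (0.36) and 11 differentiated epidermis genes (0.3). For Krt10 they were Tmem255a, Krt78, C130074G19Rik, Lars2 and Zim1, with 9 of 10 differentiated epidermis slopes above 0 (median 0.67). Slopes on Krt10 were also above 0 for all 7 B cell (median 2.01), 10 stress keratinocyte (1.69), 14 adipocyte (1.34), 12 cell cycle (0.92) and 15 osteoblast and osteocyte genes (0.66). Only 2 of the 7 B cell genes were at 1 CPM or more in every sample.

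The 5 tissue genes were also set against each other. Of their 10 pairs none had an adjusted p under 0.05 by an exact two-sided permutation of Pearson's r, where the smallest p possible is 0.000397. Over all 7 samples, Ibsp and Pecam1 had the largest r (0.74, exact permutation p = 0.0563, adjusted p = 0.391; rho 0.79, exact permutation p = 0.048, adjusted p = 0.48). Without the 2 samples farthest from the median of Ibsp, r was 0.61. Krt10 and Plin1 had r = 0.73 (exact permutation p = 0.0782, adjusted p = 0.391; rho 0.61, exact permutation p = 0.167, adjusted p = 0.556), and 0.85 without the 2 samples farthest from the median of Krt10. A single sample moved some pairs. Without TNTSham 4, r of Ckm and Ibsp went from -0.12 to -0.91 and r of Ckm and Pecam1 from -0.57 to -0.9, and still none of the 10 pairs had an adjusted p under 0.05.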

How the data were processed

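Counts per gene were deposited by the authors as raw values for all 13 samples. The submitters' processing notes name fastp 0.20.1 for trimming, the aligner HISAT2 2.2.1, build GRCm39 and the counter featureCounts (Subread 2.0.2), besides DESeq2 1.34.0 and R 4.1.2. Not given in the sources used here: strand setting, annotation release and treatment of multimapping reads. Of 55357 genes 52081 matched GENCODE M21 (GRCm38) by identifier, which supplied symbols, classes and exon lengths.

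The 7 TNTSham columns were scaled with TMM in edgeR 4.0.16 under R 4.3.3, without the other 6. filterByExpr kept 20207 genes, which needs its count level in all 7 samples and so leaves out genes absent from 1. SD, components and correlations used log2 CPM with a prior count of 2. Slopes were fitted with the quasi-likelihood F test, with Benjamini-Hochberg adjustment and calls at 0.05. The p-values measure the spread between these samples, which may share animals. On simulated counts for Ckm over 20206 genes, edgeR recovered 0, 19, 49 and 50 of 50 genes at slopes of 0.25, 0.5, 1 and 1.5 with 7 false calls. In the same counts DESeq2 found 2, 28, 49 and 50 with 40 false calls. When no gene was changed, DESeq2 made 10 calls and edgeR 0. Each simulated gene was drawn independently of the others. These false calls therefore do not cover variation that many genes share between samples, as they do in these data.

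The members and the 39 lists (464 genes, 463 in the table, 414 past the filter) were chosen with earlier results of these data known. Named were the 20 genes highest by CPM and 12 per kb, and the 20 most variable protein-coding genes with a mean of at least 5 CPM. Of the 3 highest members of each list, some were named and others were not. Also named were the 5 protein-coding genes of smallest p called in each direction with each tissue gene (of any direction where none was called), and the sex-linked genes. Other members named, such as Prox1, Sost, Tnmd, Flt4 and the Sprr genes, were chosen for their known roles or after their values were seen. Alternatives were DESeq2 1.42.0, limma trend 3.58.1, upper quartile or no scaling, other filters and prior counts, fewer genes and leaving out samples. Of the hair list, 1 member was not analysed here. A further planned covariate is not reported here.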

Additional observations from a re-analysis of the deposited data

Results flagged for a closer look

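Among 203 genes and list sums examined, 33 had a sample farther from the other 6 than Dixon's 95% critical value of 0.568 allows, where chance sets apart about 1 in 20 groups not picked for their spread. That rate does not hold for the 20 genes examined because they vary most, such as Cxcl2 or Zic1. The items are also not independent, since members of a list and the list's sum share counts. Values are CPM, with the range of the other 6 samples in brackets where it was not given above.

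TNTSham 1 was the highest sample for Krt14 (4458), Epgn (84.2), Stfa2 (51.2), Sprr2e (15, others 0.795 to 5.77), Sprr2i (25.5, others 1.74 to 11.6) and Asprv1 (677). It was also highest for Acta2 of smooth muscle (267, others 98.2 to 158), the macrophage genes Mrc1 (628, others 265 to 380) and Csf1r (351, others 249 to 267), and Ngp of neutrophil granules (8.46, others 0.177 to 1.42). The mast cell proteases Mcpt4 (137, others 29.7 to 54.0) and Cpa3 (130, others 32.5 to 52.2) and the platelet gene Pf4 (30.5, others 15 to 20.8) followed. The summed macrophage list stood at 2800 and the summed mast cell list at 447. The same sample was lowest, at 0, for Ddx3y, Eif2s3y, Uty, Kdm5d and the summed Y-linked list.

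TNTSham 6 was highest for Cxcl2 (33.8), Il1b (84.4), Acod1 (29.0) and Ptgs2 (51.0, others 6.99 to 24.6), all of them inflammatory genes. TNTSham 5 was highest for the barrier gene Flg (1429, others 942 to 1145), for Mylk (134, others 81.0 to 102), for Notch3 (141, others 112 to 116) and for the summed pericyte list (1095, others 752 to 874). TNTSham 3 was highest for Col2a1 (242) and for the embryonic myosin Myh3 (29.7, others 11.3 to 18.4). TNTSham 2 was highest for Krt19 (5.22, others 0.442 to 2.11) and Hoxd10 (21.7). TNTSham 4 was lowest for Zic1 (0.53).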

How the results depend on the processing

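No paired analysis was possible because the report rests on a single group and replicate numbers pair nothing. DESeq2 called 898, 74, 2, 140 and 451 genes with Ckm, Ibsp, Krt10, Plin1 and Pecam1, against 159, 2, 0, 0 and 1 for edgeR. Without the filter on low counts, edgeR called 254, 12, 1 and 31 with Ckm, Ibsp, Plin1 and Pecam1. Limma trend and upper quartile scaling kept every one of these counts within 1.5 times. Leaving out 1 sample each time gave 12 to 229 genes with Ckm, 0 to 2 with Ibsp, 0 to 3 with Krt10, 0 to 1 with Plin1 and 0 to 138 with Pecam1. Leaving out TNTSham 6 and 7 together, chosen after seeing the data, gave 0 with each of Ckm, Ibsp and Pecam1. Genes with an SD above 1 numbered 2100 without the filter and 82 at a mean of at least 5 CPM, and 133 to 204 without each sample. The first component held 44.0% with 500 genes, 43.8% with protein-coding genes and 38.5 to 48.9% without each sample. The 10 most abundant genes held 10.5 to 11.1% of counts without each sample. Slopes of 23 named genes kept their sign under every alternative run, with 225 results on the same side of the threshold, 44 no longer past it and 7 newly past it. The cause of these shifts was not tested. In simulated counts over 7 samples, edgeR and limma trend recovered 0 of 50 genes at a slope of 0.25 and DESeq2 recovered 2.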
